A study of Mus musculus with 12 samples.

Results

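A set of 10 genes of the antioxidant and metal response was followed in mouse liver across 6 groups of genotype and diet, and all 10 were found by symbol among the 16346 genes of the normalized count table. They are *Nfe2l2*, which encodes the transcription factor NRF2, *Keap1*, which encodes its inhibitor, the NRF2 target genes *Nqo1*, *Gclc*, *Gclm*, *Hmox1*, *Txnrd1* and *Srxn1*, and the metallothionein genes *Mt1* and *Mt2*. They are a list of names, and no measured value entered the rule, but they and the gene lists below were chosen with earlier results of these data known. All 10 had a mean of at least 10 normalized counts and were tested among 12366 genes.

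The livers came from mice of 12 weeks on the C57BL6J background, all of which carried floxed *Med13* alleles and were kept on normal chow. Controls were Med13fl/fl mice, and MED13-LKO mice also carried Alb-Cre, which acts in hepatocytes and leaves other liver cells floxed. Within each genotype 2 mice were fasted for 16 h, 2 were refed for 4 h with 30% sucrose in the drinking water and 2 with 30% fructose, which gave 12 libraries. Fasted and fed mice were killed at different hours of the day, so feeding and time of day cannot be told apart. MED13 is a subunit of the kinase module of Mediator, and the design asked how liver expression responds to either sugar with and without it. No source ties the mice to litters or batches. The p-values rest on the spread between the 2 mice of each group, pooled over all 6 groups unless stated and moderated across genes. *Med13* itself was at 674 and 796 normalized counts in the fasted controls, 578 and 673 in the sucrose controls and 607 and 778 in the fructose controls. Under the label MED13-LKO the fasted libraries were at 808 and 899, those of sucrose at 646 and 717 and those of fructose at 681 and 1055. It was thus not lower under that label (log2 fold change 0.22, limma adjusted p = 0.201), but a value over the whole gene includes exons outside the stretch that Cre removes and does not check the deletion. The term MED13-LKO is used here for the label.

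Control libraries held 21100000 to 24200000 normalized counts in sum and MED13-LKO libraries 17300000 to 18700000, and the 100 highest genes held 49.3% to 53.5% of them in controls against 44.7% to 46.4%. From the spacing of low values in genes with 1 transcript, 16100000 to 24200000 reads per library were estimated to lie on genes. Hepatocyte markers had summed levels between 1779157 and 3037453 normalized counts per library, so the livers held them throughout. Averaged over the diets 5 of 6 were lower in MED13-LKO, where 13.2% of all genes tested were lower and 12.1% higher. In the same comparison 4 of 6 sinusoidal endothelial markers and 2 of 11 Kupffer cell markers were higher. Of the Kupffer markers 18.2% were called, against 25.3% of all genes, with sums of 4870 to 6894 in controls and 6216 to 8309 in MED13-LKO. Of 7 stellate cell markers 1 was lower, and of 4 cholangiocyte markers 1 was lower. Of 5 lymphocyte and neutrophil markers 2 were tested, and 1, *Ptprc*, was higher. The sums of the 5 were 181 to 248 in controls and 233 to 377 in MED13-LKO. Of 5 erythroid markers 4, all globin genes with near-identical copies, were lower in MED13-LKO and 4 were lower in fed mice, with sums of 11846 and 14895 in fasted and 8905 to 12276 in fed controls, and of 10096 and 11173 in fasted and 5734 to 9674 in fed MED13-LKO. With feeding the hepatocyte markers *Cps1* (log2 fold change -0.45, limma adjusted p = 0.00469) and *Hnf4a* (-0.29, adjusted p = 0.00751) fell too, 2 of 6. Of 6 endothelial markers 1 fell, *Clec4g*, and of 7 stellate cell markers *Col1a1* rose and *Reln* fell. Called were 0 of 11 Kupffer cell, 0 of 4 cholangiocyte and 0 of 2 lymphocyte and neutrophil markers. Of all genes 21.8% were called with feeding, and 11% fell. In whole liver, fewer cells of a type and less RNA per cell cannot be told apart, and the part of these shifts in the feeding and genotype results below was not tested.

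NRF2 is held in the cytoplasm by KEAP1, which presents it to the CUL3 ubiquitin ligase for destruction. Electrophiles and oxidants modify cysteines of KEAP1, and NRF2 then accumulates, pairs with small MAF proteins and binds antioxidant response elements (AREs) in genes for glutathione synthesis, quinone reduction and thioredoxin recycling. BACH1 competes for the same elements. Metallothioneins are small cysteine-rich proteins that bind zinc and copper. Their genes are known to respond to zinc through the factor MTF1, which binds metal response elements (MREs), and to glucocorticoids and fasting in liver.

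The stretches upstream of both metallothionein genes are shown because these genes had the widest range of all 10. *Mt1* (ENSMUSG00000031765) lies at chr8:94179082-94180327 on the plus strand of GRCm38 and *Mt2* (ENSMUSG00000031762) at chr8:94172664-94173568 on the same strand. The 250 bases before each RefSeq transcription start (GRCm38.p6, plus strand, chr8:94178839-94179088 and chr8:94172368-94172617) follow, 5′ to 3′, with matches to the MRE core in capitals.
Mt1: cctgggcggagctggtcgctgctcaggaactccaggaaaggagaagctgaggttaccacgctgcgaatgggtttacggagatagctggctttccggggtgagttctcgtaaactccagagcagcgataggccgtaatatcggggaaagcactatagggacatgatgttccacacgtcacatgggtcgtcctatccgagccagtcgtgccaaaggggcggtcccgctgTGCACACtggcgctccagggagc
Mt2: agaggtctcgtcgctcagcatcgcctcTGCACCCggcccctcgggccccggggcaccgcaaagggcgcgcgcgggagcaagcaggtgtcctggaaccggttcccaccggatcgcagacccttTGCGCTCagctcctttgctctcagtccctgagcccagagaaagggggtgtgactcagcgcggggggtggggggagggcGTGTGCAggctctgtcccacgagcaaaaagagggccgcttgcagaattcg
The core was searched as TGCGCNC or TGCACNC on both strands. In windows from 250 bases before to 50 bases after the start, *Mt1* had 3 matches, which began at -23, 3 and 21, and *Mt2* had 4, at -223, -128, -50 and 5. MRE matches were not confined to these genes, as *Gclm* had 3, at -138, -72 and 28, and *Srxn1* had 1, at -19. The windows of *Nfe2l2*, *Keap1*, *Nqo1* and *Txnrd1* had none. At least 1 match was present in 25.7% of 32851 promoters of that length, at least 2 in 7.11% and at least 4 in 0.517%. The ARE, searched as TGACNNNGC on both strands, was matched in 12.4% of promoters. Single matches lay in the windows of *Mt2* at -79, *Nfe2l2* at -240, *Gclm* at -134 and *Srxn1* at 29, and in 1 of the 3 start windows of *Txnrd1* at -92, and those of *Mt1*, *Keap1* and *Nqo1* had none. *Gclc* and *Hmox1* were not matched to a promoter entry. These are matches of letters and not measured binding sites.

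*Mt1* and *Mt2* fell with either sugar in both genotypes, and no other gene of the 10 moved as far. *Mt1* was at 2575 and 1442 normalized counts in the fasted controls, 321 and 192 in the sucrose controls and 364 and 409 in the fructose controls. The fasted MED13-LKO mice were at 3073 and 2186, those given sucrose at 170 and 411 and those given fructose at 624 and 533. Every fasted mouse was above every fed mouse, in either genotype. *Mt2* was at 1794 and 1056 in the fasted controls, 67.7 and 70.7 with sucrose and 132 and 183 with fructose. For MED13-LKO the *Mt2* values were 3881 and 2404 in fasted mice, 80.6 and 190 after sucrose, and 198 and 206 after fructose. Here too the fasted and the fed mice did not overlap. The highest library exceeded the lowest by 18.1 times for *Mt1* and 57.3 times for *Mt2*, against 1.43 to 2.6 times for the other 8 genes, and 97.6% and 98.9% of all genes tested varied less across the 12 libraries.

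**Figure D1:**
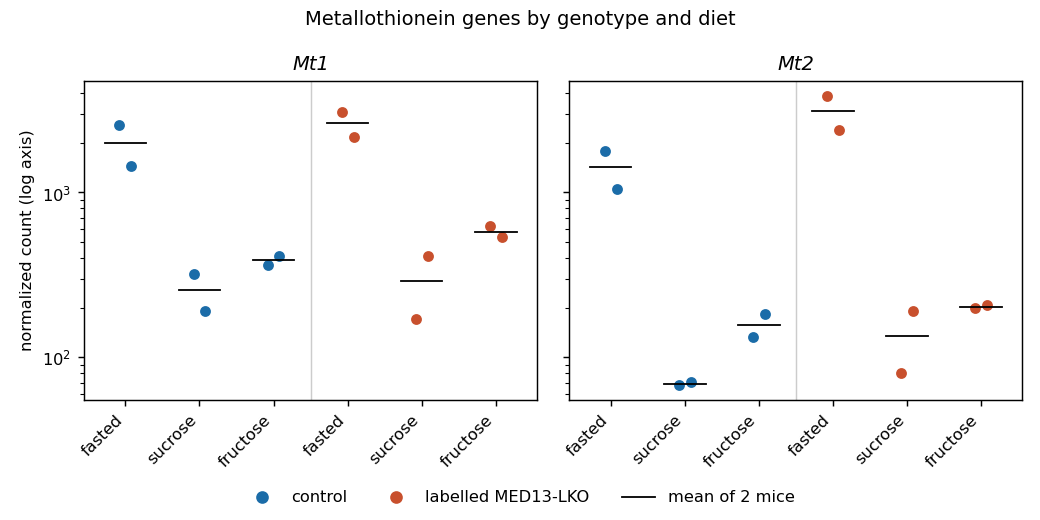
Normalized counts of Mt1 (left) and Mt2 (right) on a log axis, with 1 point per mouse and a line at the mean of the 2 mice of each group. The 4 fasted mice sit between 1442 and 3073 for Mt1 and between 1056 and 3881 for Mt2, and all 8 fed mice lie below them.

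Averaged over both sugars and genotypes, *Mt2* was 15.9-fold lower in fed than in fasted mice (log2 fold change -3.99 ± 0.236 SE, limma adjusted p = 2.09e-05) and *Mt1* was 6.41-fold lower (-2.68 ± 0.249, adjusted p = 0.00011). Of the 10 genes, 5 passed an adjusted p of 0.05 in this comparison, 3 higher and 2 lower, where 21.8% of all genes tested passed, 10.7% higher and 11% lower. In the controls given sucrose *Mt1* was 7.73-fold lower (limma adjusted p = 0.0025) and *Mt2* 19.6-fold lower (adjusted p = 0.000391), and these were the 2 members called against 8.57% of all genes. With fructose in the controls *Mt1* was 4.98-fold lower (limma adjusted p = 0.0128) and *Mt2* 8.82-fold lower (adjusted p = 0.00298), again the 2 members called, against 5.6% of all genes. The fructose calls in the controls were lost in a fit of these 4 libraries alone (adjusted p = 0.0829 and 0.054), and that of *Mt1* without the first fasted control (0.0787) or the first fructose control (0.063).

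In MED13-LKO the decrease with sucrose was 9.77-fold for *Mt1* (limma adjusted p = 0.00245) and 24.5-fold for *Mt2* (adjusted p = 0.000628). With fructose it was 4.49-fold for *Mt1* (limma adjusted p = 0.0155) and 15.1-fold for *Mt2* (adjusted p = 0.00178). The *Mt1* call with fructose was lost without the first or the second fasted MED13-LKO mouse (adjusted p = 0.0945 and 0.0577) or the second fructose mouse (0.132). Among the 10 genes, 3 were called with sucrose against 5.71% of all genes, and 4 with fructose against 6.53%. The feeding responses of *Mt1* and *Mt2* were not shown to differ between genotypes, with differences of -0.77 to 0.15 on the log2 scale (95% intervals within -1.99 to 1.43) and limma adjusted p of 0.688 to 0.957. Fructose values of both genes lay above the sucrose values in both genotypes, without overlap, but no difference passed the test (log2 0.63 to 1.15, limma adjusted p 0.474 to 0.738).

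*Mt2* was also higher in MED13-LKO than in control, by 1.72-fold averaged over the 3 diets (log2 fold change 0.79 ± 0.223 SE, limma adjusted p = 0.0275), and both MED13-LKO mice lay above both controls in each diet. The single diets gave log2 fold changes of 1.15 when fasted, 0.83 with sucrose and 0.38 with fructose, none past the threshold (limma adjusted p = 0.093, 0.25 and 0.609). The averaged call held in 4 of the 12 fits that left out a mouse, those without the first fasted control, the second fructose control, the second fasted MED13-LKO mouse or the first sucrose MED13-LKO mouse. In the other 8 its log2 fold change was 0.58 to 0.80 with an adjusted p between 0.0506 and 0.0746. For *Mt1* the averaged log2 fold change was 0.36 (95% interval -0.16 to 0.89, limma adjusted p = 0.292), and the mice overlapped. Averaged over the diets, 2 of the 10 genes were called between genotypes, *Mt2* and *Srxn1*, both higher, where 25.3% of all genes tested were called, 12.1% higher and 13.2% lower.

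The ratio of *Mt2* to *Mt1* normalized counts, looked at after the values were seen, was 0.70 and 0.73 in the fasted controls and 1.26 and 1.10 in fasted MED13-LKO. In the fed mice it was 0.21 to 0.47, and every fed mouse lay below every fasted one. The ratio carries the lengths of both transcripts, so its size is not a ratio of molecules, and only its shift between libraries can be read. Of the 31-base stretches of *Mt2* 58.1% also occur in another gene, either Gm45774, an antisense gene over *Mt2*, or *Pip5k1a*, whereas *Mt1* shares none with another gene. No source states that reads were counted by strand, so reads of *Mt2* and its antisense gene cannot be told apart.

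Over the 12 libraries, the genes whose centred log2 profile differed least from *Mt1* were *Slc25a34* (root mean square difference 0.670), ENSMUSG00000029333 (0.672), *Tat* (0.677), *Mt2* (0.714) and *Fkbp5* (0.716). *Mt1* itself deviated by 1.38 from its mean. For *Mt2* the nearest were *Mt1* (0.714), *Angptl4* (0.748), *Ip6k2* (0.976), *Zbtb16* (0.993) and *Ddit4* (1.03), where *Mt2* deviated by 1.99. All these values share the same libraries and the step between fasted and fed mice, so they are a description.

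Known glucocorticoid responsive genes were listed because metallothioneins belong among them. The list was chosen with earlier results of these data known, so its share of called genes is a description and not a test. Of 14 such genes 10 fell with feeding averaged over genotypes and sugars and 0 rose, with a median log2 fold change of -1.25 against -0.01 over all genes, of which 11% fell. *Ddit4*, an inhibitor of mTORC1 signalling, had the largest decrease (-2.87, limma adjusted p = 6.73e-05), before *Zbtb16* (-2.77, adjusted p = 0.00137), the cell cycle inhibitor *Cdkn1a* (-2.23, adjusted p = 0.00255) and the tyrosine aminotransferase gene *Tat* (-1.89, adjusted p = 3.87e-05). *Tat* was at 97464 and 123400 normalized counts in the fasted controls and 17264 to 30692 in the fed ones, and at 62038 and 66664 in fasted and 17430 to 30809 in fed MED13-LKO mice. Between genotypes 4 of the 14 were higher and 1 lower, against 12.1% and 13.2% of all genes, with the largest differences for *Cdkn1a* (1.88, limma adjusted p = 0.00376), *Lcn2* (1.37, adjusted p = 0.00911) and *Sult1e1* (1.19, adjusted p = 0.00764). The mean of *Sult1e1*, 13.43 normalized counts, was near the filter of 10. Within a diet it was called only with sucrose (3.01 and 3.1 in controls, 25.9 and 30.4 in MED13-LKO). With fructose the genotypes overlapped (9.92 and 8.99 against 10.8 and 7.52).

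Of 22 metal handling genes tested, 5 rose and 3 fell with feeding (36.4% called, against 21.8% of all genes). *Slc30a10*, a manganese exporter, rose most (log2 fold change 1.80, limma adjusted p = 3.24e-05), from 183 and 182 normalized counts in fasted to 683 to 1206 in fed controls and from 330 and 300 to 642 to 995 in MED13-LKO. The iron hormone gene *Hamp* (1.17, limma adjusted p = 0.0165), the transferrin receptor *Tfrc* (0.63, adjusted p = 0.00664) and the copper transporter *Atp7b* (0.50, adjusted p = 0.0027) rose as well. *Mtf1*, the MRE-binding factor, was at 0.29 (limma adjusted p = 0.12) with feeding and 0.07 (0.705) between genotypes. *Slc30a1*, a zinc exporter and MTF1 target, was at 0.22 with feeding (limma adjusted p = 0.0549). It rose in the controls given sucrose (0.49, limma adjusted p = 0.0315) but was not called with fructose in the controls or with either sugar in MED13-LKO. Between genotypes 5 were higher and 3 lower (36.4% called, against 25.3% of all genes), led by *Hamp2* (3.48, limma adjusted p = 6.57e-05), which shares 34.5% of its 31-base stretches, among others with the paralog *Hamp* (1.41, adjusted p = 0.00437), so that the split of reads is uncertain.

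*Nfe2l2* (ENSMUSG00000015839; chr2:75675513-75704641, minus strand) was among the steadiest of the 10 genes. It was at 1109 and 1165 normalized counts in the fasted controls, 1566 and 1387 after sucrose and 1104 and 1305 after fructose. The same groups of MED13-LKO were at 1203 and 1097, 1235 and 1365, and 1394 and 1294. Fed mice averaged 1.16-fold above fasted mice (log2 fold change 0.21 ± 0.0659 SE, limma adjusted p = 0.0437), with overlapping values. This call held only without the second sucrose control or the first fructose control among the 12 fits that left out a mouse, and the other 10 gave adjusted p between 0.0511 and 0.158 at log2 fold changes of 0.18 to 0.25. The genotypes differed by -0.00 (95% interval -0.14 to 0.14, limma adjusted p = 0.987).

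*Keap1* (ENSMUSG00000003308; chr9:21229730-21239361, minus strand) was at 366 and 368 normalized counts in the fasted controls, 457 and 445 with sucrose and 356 and 368 with fructose. The fasted MED13-LKO mice were at 271 and 352, those on sucrose at 424 and 476 and those on fructose at 482 and 425. The fructose controls lay at the fasted level, whereas both fed groups of MED13-LKO lay above their fasted mice. *Keap1* rose 1.27-fold with feeding on average (log2 fold change 0.34, limma adjusted p = 0.0154), and in MED13-LKO by 0.54 with sucrose (adjusted p = 0.0452) and 0.55 with fructose (adjusted p = 0.0384). In the controls it was at 0.30 with sucrose (limma adjusted p = 0.203) and -0.02 with fructose (0.949), and the difference between the fructose responses, 0.57 (95% interval 0.15 to 0.99), was not past the threshold (adjusted p = 0.438). The averaged call was lost without the first or second fasted control (limma adjusted p = 0.0502 and 0.0545) or the first fasted MED13-LKO mouse (0.0619), which had the lowest value. Each MED13-LKO call was lost in 9 of the 12 fits without a mouse, at adjusted p up to 0.261 with sucrose and 0.191 with fructose, and was kept with either sugar only without the second fasted MED13-LKO mouse or a control given fructose. Part of *Keap1*, 9.02% of its 31-base stretches, is shared with its antisense gene Gm16754.

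Among 9 other regulators of NRF2, 5 fell with feeding and 0 rose, where 11% of all genes fell and 10.7% rose. *Maff*, a small MAF partner, fell most (-2.03, limma adjusted p = 0.000423), from 161 and 299 normalized counts in fasted to 55.6 to 83.5 in fed controls and from 130 and 168 to 14.5 to 34.2 in MED13-LKO. *Bach1*, the repressor that competes at AREs, fell by 0.60 (limma adjusted p = 0.0045), as did *Crebbp*, a coactivator (adjusted p = 0.00214), and *Mafk* fell by 0.49 (adjusted p = 0.00675). *Maff* (-1.05, limma adjusted p = 0.00785), *Bach1* (-0.45, adjusted p = 0.0112) and *Mafk* (-0.29, adjusted p = 0.0424) were also the 3 of 9 lower in MED13-LKO, where 13.2% of all genes were lower. *Bach1* was at 1406 and 1418 normalized counts in fasted and 923 to 1311 in fed controls, and at 1218 and 1366 in fasted and 636 to 827 in fed MED13-LKO, so that the fed groups of the genotypes did not overlap. The fasted mice lay within 1218 to 1418 in both genotypes.

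*Srxn1* (ENSMUSG00000032802; chr2:152105516-152111376, plus strand), which encodes the sulfiredoxin that restores overoxidized peroxiredoxins, was the only one of the 6 NRF2 targets among the 10 genes that was called between genotypes. It was at 444 and 365 normalized counts in the fasted controls, 409 and 512 after sucrose and 362 and 337 after fructose. In MED13-LKO the fasted mice were at 427 and 458, the sucrose mice at 633 and 681 and the fructose mice at 830 and 677. All 4 fed MED13-LKO mice lay above every control, while the fasted MED13-LKO mice lay within the range of the controls. Averaged over the diets *Srxn1* was 1.5-fold higher in MED13-LKO (log2 fold change 0.58 ± 0.0853 SE, limma adjusted p = 0.000979). With fructose the genotypes differed 2.14-fold (1.10 ± 0.148, limma adjusted p = 0.00222), the only one of the 10 genes called there, against 7.69% of all genes. With sucrose the difference was 0.52 (limma adjusted p = 0.0698) and when fasted 0.13 (0.618), and 0 of the 10 genes were called in either diet, against 6.03% and 8.98% of all genes.

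Against fasted MED13-LKO mice, *Srxn1* was higher by 0.76 on the log2 scale with fructose (limma adjusted p = 0.0177) and stood at 0.57 with sucrose (0.0527). The fructose call was lost without either fasted (limma adjusted p = 0.0955 and 0.0799) or either fructose mouse of MED13-LKO (0.0771 and 0.0599). In the controls the values were 0.18 with sucrose (limma adjusted p = 0.484) and -0.20 with fructose (0.446). The fructose response thus differed between genotypes by 0.97 (95% interval 0.50 to 1.43, unadjusted p = 0.000956), but not past the threshold over all genes (limma adjusted p = 0.224). Averaged over genotypes and sugars the feeding change was 0.33 (limma adjusted p = 0.0278), and it was lost without the second fasted control (0.127), either fasted MED13-LKO mouse (0.0968 and 0.0649) or the second sucrose MED13-LKO mouse (0.0596). The genotype calls, averaged and with fructose, held without any single mouse, at log2 fold changes of 0.53 to 0.64 and 0.95 to 1.25.

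**Figure D2:**
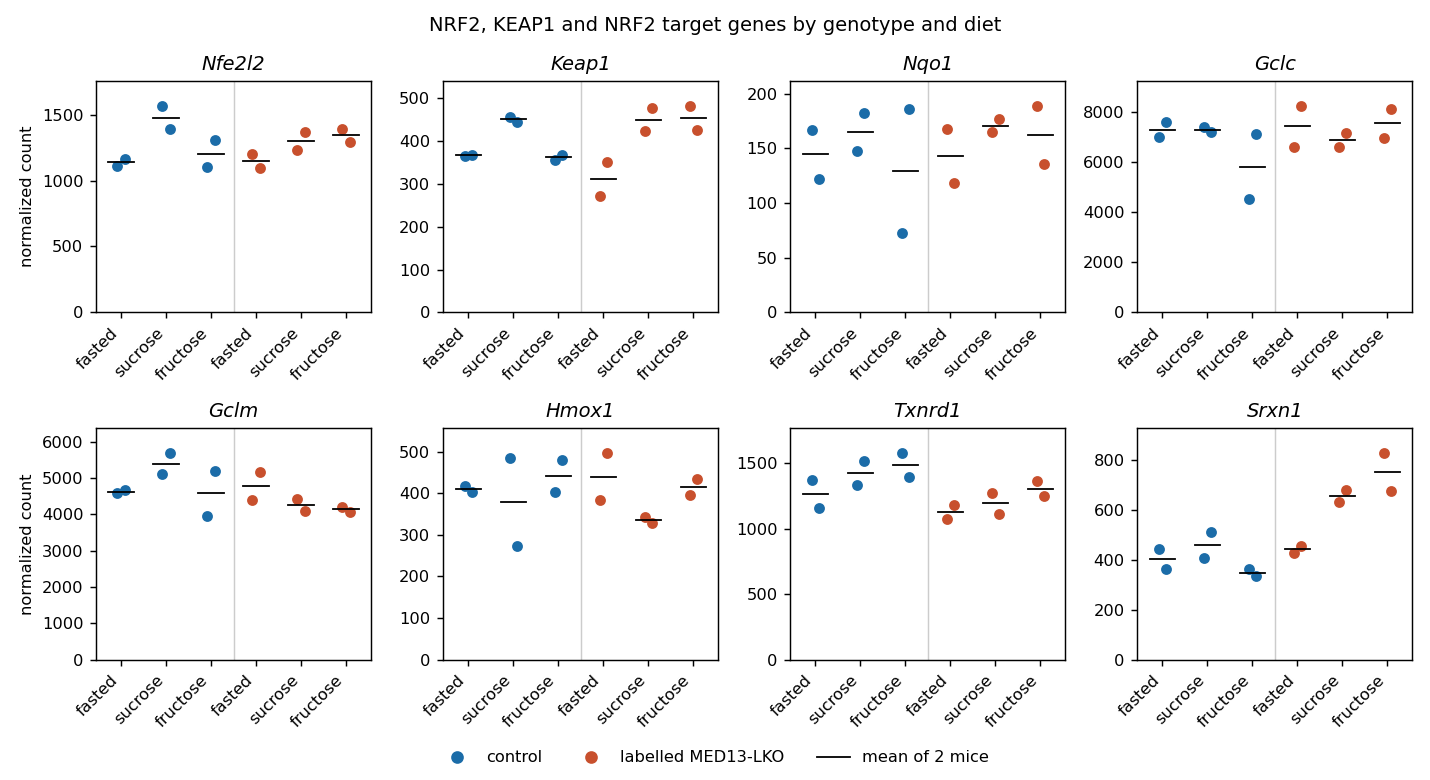
Normalized counts of Nfe2l2, Keap1 and 6 NRF2 target genes on linear axes from 0, with 1 point per mouse and a line at the mean of the 2 mice of each group. Srxn1 separates the 4 fed MED13-LKO mice (633 to 830) from all controls (337 to 512), and the first fructose control has the lowest Nqo1, Gclc and Gclm values.

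The other 5 target genes did not pass the test in any diet. *Gclc* (ENSMUSG00000032350; chr9:77754535-77794485, plus strand), the catalytic subunit of the enzyme that makes the glutathione precursor, ranged from 4537 to 8258 normalized counts over the 12 mice with a median of 7143. *Gclm* (ENSMUSG00000028124; chr3:122245557-122270732, plus strand), its modifier subunit, ranged from 3959 to 5688 with a median of 4496. *Txnrd1* (ENSMUSG00000020250; chr10:82833951-82897712, plus strand), thioredoxin reductase, ranged from 1070 to 1577 with a median of 1303. *Hmox1* (ENSMUSG00000005413; chr8:75093621-75100589, plus strand), the heme oxygenase that is also high in macrophages, ranged from 271.8 to 496.8 with a median of 402.7. *Nqo1* (ENSMUSG00000003849; chr8:107388225-107403206, minus strand), a quinone reductase, ranged from 72.7 to 189.1 with a median of 166. Each of the 5 genes thus varied by at most 2.6 times between any 2 mice.

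Across the 4 feeding comparisons their log2 fold changes lay between -0.38 and 0.28 and 0 of 20 were called (limma adjusted p 0.272 to 1), with 0 of 20 at an unadjusted p under 0.05. Of all genes, 24.6% and 22.9% were under that limit for sucrose and fructose in the controls, and 20.8% and 23.2% in MED13-LKO. Between genotypes within a diet they lay between -0.34 and 0.46 and 0 of 15 were called (limma adjusted p 0.15 to 0.984), with 1 at an unadjusted p under 0.05, where 25.4% of all genes were when fasted, 21.4% with sucrose and 23.2% with fructose. Averaged with feeding they were -0.13 for *Hmox1*, -0.11 for *Gclc*, -0.04 for *Gclm*, 0.09 for *Nqo1* and 0.18 for *Txnrd1* (limma adjusted p 0.113 to 0.81). Averaged between genotypes they were -0.20 for *Txnrd1*, -0.14 for *Gclm*, -0.04 for *Hmox1*, 0.11 for *Gclc* and 0.17 for *Nqo1* (limma adjusted p 0.055 to 0.875). *Txnrd1* lay nearest to the threshold, with a 95% interval of -0.36 to -0.05, and stayed at -0.24 to -0.16 with 1 mouse left out. It was at -0.17 when fasted, -0.26 with sucrose and -0.19 with fructose. For *Nqo1*, the least steady of the 5, the averaged 95% intervals were -0.43 to 0.61 with feeding and -0.32 to 0.66 between genotypes. Its intervals in single comparisons were wider, such as -1.14 to 0.55 with fructose in the controls and -0.38 to 1.31 between genotypes with fructose. Changes within these intervals could not be told from the spread between mice.

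**Figure D3:**
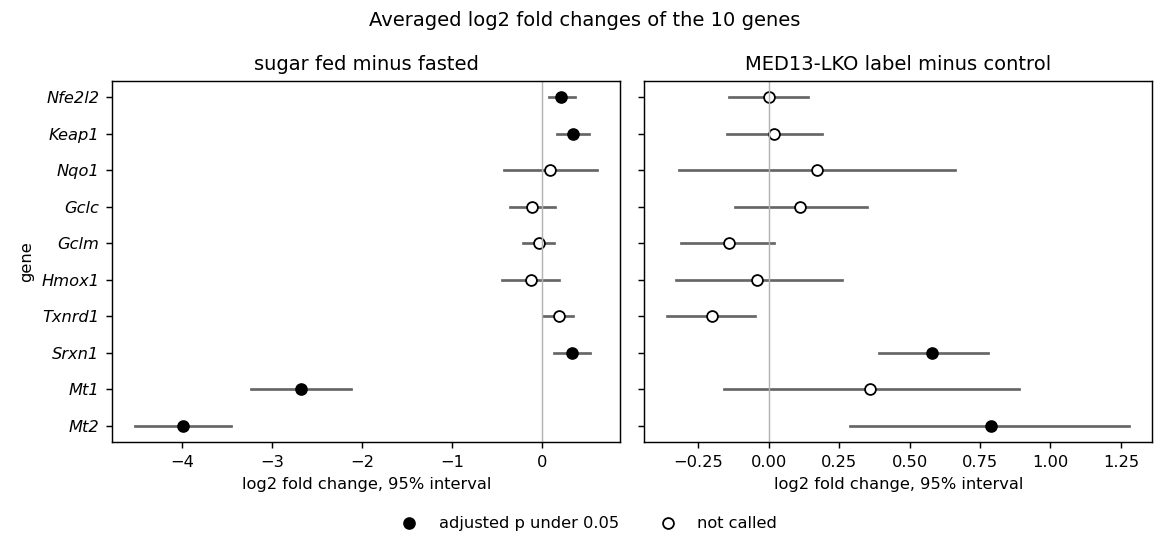
Log2 fold changes of the 10 genes with 95% intervals, fed minus fasted averaged over sugars and genotypes (left) and MED13-LKO minus control averaged over diets (right). Filled points passed the limma adjusted p of 0.05, and the left panel shows Mt1 at -2.68 and Mt2 at -3.99 apart from the other 8, which lie between -0.13 and 0.34.

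*Nqo1* and *Gclc* with fructose turned on 1 library. The fructose controls were at 72.7 and 186 for *Nqo1* and at 4537 and 7124 for *Gclc*, against 189 and 136 and against 6965 and 8142 in MED13-LKO. The first fructose control was the lowest of the 12 libraries for 3 of the 10 genes, 6 of 32 other NRF2 targets (18.8%) and 10.5% of all genes. It did not stand alone among the 32, where the second fructose MED13-LKO mouse was lowest for 7 and the first fasted MED13-LKO mouse for 6. The genotypes differed with fructose by 0.46 for *Nqo1* (limma adjusted p = 0.512) and 0.41 for *Gclc* (0.22). Without the second fructose control, when the first stood alone, both were called (1.13, limma adjusted p = 0.0476, and 0.73, adjusted p = 0.0139), and without the first *Nqo1* was at -0.21. Without the second, *Gclc* was also lower with fructose in the controls (-0.69, limma adjusted p = 0.02). In these fits the lone mouse is assumed to vary like the other groups.

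The profiles nearest to *Nqo1* were those of *Mgst3* (root mean square difference 0.174), *Gucy1a1* (0.188), *Gstt3* (0.198), *Coro7* (0.199) and *Hspa12a* (0.210), where *Nqo1* deviated by 0.377 from its own mean. *Mgst3* and *Gstt3* encode glutathione transferases. Nearest to *Gclm* (own deviation 0.16) were *Cmip* (0.0624), *Reep3* (0.0884), *Slc6a13* (0.0915), *Rnf170* (0.0964) and *Atp2c1* (0.0972), and nearest to *Hmox1* (own deviation 0.242) were *Maml2* (0.114), *Axl* (0.117), *Ggta1* (0.131), *Zbtb7a* (0.149) and *Rassf1* (0.153).

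Of 32 other NRF2 target genes 4 rose and 4 fell with feeding, a share of 25% near the 21.8% of all genes, with the pentose phosphate enzyme *Pgd* (1.01, limma adjusted p = 0.00221), the malic enzyme *Me1* (0.93, adjusted p = 0.000296) and *Osgin1* (0.68, adjusted p = 0.0277) higher and *Trib3* (-1.06, adjusted p = 0.00374) lower. *Me1* and *Pgd* supply NADPH and are also genes of lipid synthesis. Within a single sugar and genotype, *Pgd* was called only with sucrose in the controls, and *Me1* only with sucrose. *Me1* was at 14994 and 9907 normalized counts in the sucrose controls and 4976 and 5381 in the fructose controls. *Osgin1* was at 1594 and 1029 in fasted and 2289 to 3135 in fed controls, whereas fed MED13-LKO mice (1123 to 2421) overlapped the fasted ones (1183 and 1611). Between genotypes 15 of the 32 were lower in MED13-LKO and 3 higher, with a median log2 fold change of -0.29 against 0.01 over all genes, of which 13.2% were lower and 12.1% higher. The carboxylesterase *Ces1g* was lowest (-1.67, limma adjusted p = 7.8e-05), at 3630 to 6761 normalized counts in controls and 1198 to 2296 in MED13-LKO, followed by *Me1* (-0.99, adjusted p = 9.0e-05), whereas *Abcc4* (1.20, adjusted p = 0.00122), *Trib3* (0.90, adjusted p = 0.00513) and the glutathione transferase *Gstm2* (0.29, adjusted p = 0.0375) were higher. Several of the lower genes encode hepatocyte enzymes such as glutathione transferases (*Gsta1*, *Gsta3*, *Gstm1*, *Gstm3* and *Gstm4*), whose reads can be split among paralogs, and they moved with the 5 of 6 hepatocyte markers that were lower, a shift whose part was not tested.

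Of 26 genes of the glutathione and thioredoxin systems tested, 1 rose with feeding, the glutathione synthetase *Gss* (0.32, limma adjusted p = 0.00195), and 1 fell, *Glrx* (-0.23, adjusted p = 0.0407), a share of 7.69% against 21.8% of all genes. Between genotypes 8 were lower in MED13-LKO and 0 higher (30.8% called, against 25.3% of all genes). The largest decreases were those of *Glrx5* (-0.60, limma adjusted p = 0.000364), the methionine sulfoxide reductase *Msrb1* (-0.52, adjusted p = 4.56e-05), catalase *Cat* (-0.51, adjusted p = 0.000654) and the mitochondrial thioredoxin *Txn2* (-0.34, adjusted p = 0.000395). *Cat* was at 41765 to 51204 normalized counts in controls and 28163 to 39344 in MED13-LKO, without overlap. *Slc7a11*, the cystine transporter, had a mean of 1.79 normalized counts and was not tested.

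**Figure D4:**
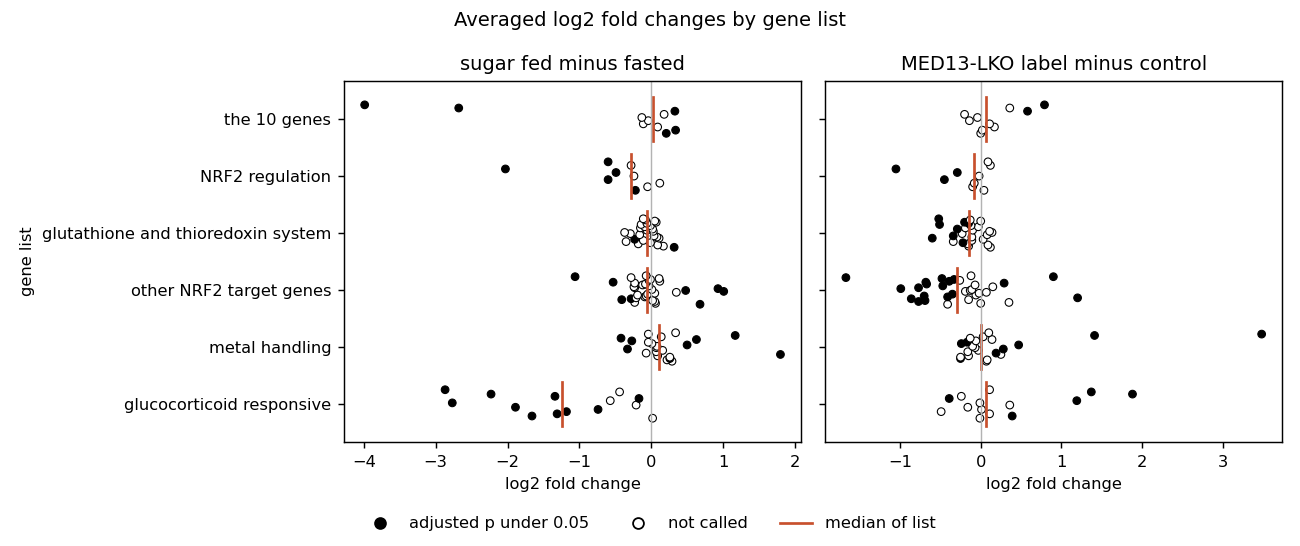
Log2 fold changes of the genes of each list, fed minus fasted averaged over sugars and genotypes (left) and MED13-LKO minus control averaged over diets (right), with filled points for a limma adjusted p under 0.05 and a line at the median of each list. Glucocorticoid responsive genes lie around -1.25 with feeding, and other NRF2 target genes around -0.29 between genotypes.

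Fructose and sucrose were not told apart by any of the 10 genes in either genotype. Their log2 differences, fructose minus sucrose, lay between -0.49 and 1.15, and 0 of 20 were called by limma (adjusted p 0.474 to 0.99), with 5 of 20 at an unadjusted p under 0.05, where 0.0404% of all genes were called in each genotype and 8.58% in controls and 7.69% in MED13-LKO had an unadjusted p under 0.05. The feeding responses of the genotypes differed by -0.77 to 0.97 with 0 of 20 called by limma (adjusted p 0.224 to 0.985) and 2 of 20 at an unadjusted p under 0.05, where 0.146% of all genes were called for sucrose and 0.0243% for fructose and 8.53% and 9.46% had an unadjusted p under 0.05.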

How the data were processed

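Liver RNA-seq libraries of 12 mice, 2 in each of 6 groups taken from the sample titles, were used. The deposited signal values are the authors' normalized counts per Ensembl gene. Reads were trimmed with Trim Galore 0.6.5, transcript counts were estimated with kallisto 0.46.0 and normalized with DESeq2 1.24.0, and the submitters' processing notes name the build mm10. Of the values under 20, 66.0% to 95.8% in genes with 1 transcript but 37.7% to 54.0% over all genes were within 0.02 of a whole multiple of a step per library, so whole reads were not recovered and no count model was run. Symbols and positions came from GENCODE M21 (GRCm38), which named 16212 of 16346 genes, and promoters from RefSeq (GRCm38.p6).

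Values were taken to log2(normalized count + 1), and genes with a mean under 10 were left out, which kept 12366. The log scale understates the changes of low genes. A model of the 6 groups was fitted to all libraries in limma 3.58.1 (R 4.3.3) with trended empirical Bayes moderation, and p-values were adjusted by Benjamini-Hochberg over all genes tested, with calls at an adjusted p under 0.05. Values are log2 fold changes with standard errors (SE). The fit was first tested on simulated data of the same genes. Profiles were compared in R, and reads per library were estimated with Python 3.11.15 and NumPy 2.4.6.

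The 10 genes and the gene lists were chosen with earlier results of these data known. Named besides the 10 were up to 4 called genes per list and comparison with the largest change, *Bach1*, *Mtf1*, *Slc30a1* and *Slc7a11*, the 5 nearest profiles of 5 of the genes, and *Med13*. *Gpx2*, *Mt3*, *Mt4*, *Tf* and *Epcam* were not analysed here. Mice with the same replicate number in the sample titles did not deviate together (15 pairs of groups, correlations -0.142 to 0.0782), so the main fit has no block. The authors' column labels number the fed mice differently, and a pairing by those labels was not examined. Alternatives were pseudocounts of 0.1 and 10, no filter, equal 75th percentiles, the replicate block, fits without the groups not compared, and 1 mouse left out at a time.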

Additional observations from a re-analysis of the deposited data

Results flagged for a closer look

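Pairs of gene and sugar were flagged if the responses differed by call or the fed mice lay on opposite sides of the fasted ones. Of 20 pairs only *Srxn1* with fructose was flagged, and the share of all genes under this rule was not determined. The fructose values of *Srxn1* lay on opposite sides of the fasted values in the genotypes. Both fructose controls (362 and 337 normalized counts) lay below both fasted controls (444 and 365), and both fructose MED13-LKO mice (830 and 677) lay above both fasted ones (427 and 458). The difference of the responses, MED13-LKO minus control, was 0.97 on the log2 scale, and in limma it did not pass the threshold over all genes (adjusted p = 0.224). Within the controls the change with fructose, -0.20 (95% interval -0.53 to 0.12), did not pass it either (adjusted p = 0.446).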

How the results depend on the processing

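With 1 mouse left out at a time, the number of the 10 genes called was 2 to 5 for feeding averaged, 1 to 4 for genotype averaged, 1 to 3 for fructose in controls, 1 to 4 for fructose in MED13-LKO, 0 to 1 for genotype when fasted (*Mt2*, without either sucrose MED13-LKO mouse) and 1 to 3 for genotype with fructose. With only the compared groups fitted, which leaves fewer samples to estimate the spread, 0 were called for fructose in controls, the *Keap1* calls in MED13-LKO were lost (limma adjusted p = 0.104 with sucrose and 0.126 with fructose), and *Srxn1* with sucrose in MED13-LKO was gained (0.029), as it was at equal 75th percentiles (0.0491) and without either sucrose control (0.0459 and 0.0464). The averaged feeding calls of *Mt1* and *Mt2* and the averaged genotype call of *Srxn1* held under every alternative run. Signs were followed for the averaged changes of all 10 genes and for a chosen part of the single comparisons, so the list of turns is not complete. Among these, signs turned only for values that were not called. Averaged between genotypes *Nfe2l2* turned (0.00 at equal 75th percentiles, -0.04 to 0.04 without a mouse). Without a mouse, *Nqo1* (-0.07 to 0.26) and *Gclm* (-0.10 to 0.01) turned with feeding. *Keap1* (-0.04 to 0.08), *Nqo1* (-0.06 to 0.39) and *Hmox1* (-0.17 to 0.10) turned between genotypes. With fructose in controls *Nfe2l2* (-0.04 to 0.20), *Keap1* (-0.04 to 0.00) and *Nqo1* (-0.96 to 0.38) turned. Between genotypes within a diet, *Srxn1* when fasted (-0.01 to 0.27), *Mt1* with sucrose (-0.55 to 0.72) and *Nqo1* with fructose (-0.21 to 1.13) turned. The cause was not tested.

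The replicate numbers pair no mice by any source, and the replicate block gave 4 called genes for feeding averaged (*Nfe2l2* lost, limma adjusted p = 0.0604), 2 for genotype averaged, 2 for each sugar in controls, 2 for sucrose and 3 for fructose in MED13-LKO (*Keap1* lost, 0.058 and 0.052), 1 for genotype with fructose, also with the fructose MED13-LKO numbers crossed, and 0 elsewhere. Without the filter *Nfe2l2* with feeding (0.0522) and *Keap1* with sucrose in MED13-LKO (0.0532) were lost. Rescaling to equal 75th percentiles moved the median of all genes by at most 0.03. With 2 mice per group, a gene not called may still have changed. At 16100000 to 24200000 reads per library, depth limits *Slc7a11* (mean 1.79) but none of the 10 genes.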
